A study of Sus scrofa with 14 samples.

Results

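The genes that carry fatty acids into fat cells were described as a listed set of 10, namely LPL, GPIHBP1 and ANGPTL4 on the lipase side, CD36, SLC27A1, SLC27A4 and ACSL1 for uptake and activation, and FABP4, FABP5 and FABP3 for binding inside the cell. The set was taken by gene symbol, with a rule that used no measured value, although it was chosen with earlier results of these data known. Of the 10 genes, 9 were matched by symbol to an Ensembl identifier among the 21280 genes of the expression tables, of which 14821 carried a symbol. CD36 was paired with no identifier, so its expression was not analysed here, and only its chromatin values are given. Adipose tissues (ATs) of wild boars, a lean type, and of Bama pigs, a fat-type breed of South China, were profiled by RNA-seq and by Hi-C, a sequencing assay of chromatin contacts. The tissues were the greater omentum (GOM), a visceral depot, and the upper layer of backfat (ULB), a subcutaneous depot, from healthy female pigs 2 years of age that shared feeding conditions and were fasted before sampling. As a limit of the comparison, the wild boars were captive animals of wild origin, and the Bama pigs were from a line that is not an inbred strain. For each assay 7 libraries were analysed. Each depot of the wild boars and the Bama pig GOM had 2 libraries, whereas the Bama pig ULB had 1 (replicate 2), and its replicate 1 was not analysed here. Pigs gave tissue of both depots, so the libraries are not all from different animals.

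Adipocytes can take up fatty acids from triglyceride in circulating lipoproteins. Lipoprotein lipase (LPL) is made by adipocytes, is carried to the capillary wall by GPIHBP1 and is inactivated by ANGPTL4, a protein that rises with fasting in fat. The released fatty acids enter through CD36 and the SLC27 transport proteins, are bound to coenzyme A by acyl-CoA synthetases such as ACSL1, and are held in solution by the fatty acid binding proteins (FABPs). FABP4 is the abundant adipocyte form, FABP5 is shared by adipocytes, macrophages and skin, and FABP3 is the heart and muscle form. PPARG, the master receptor of fat cell differentiation, is known to drive several of these genes.

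The bases upstream of the start site are shown for ANGPTL4, the gene with a depot difference. The sequence was read from the RefSeq genome of build Sscrofa11.1 and is written 5′ to 3′ on the minus strand, the strand of the gene. It covers the 250 bases of chr2:70912893-70913142. Capitals mark exact matches, on either strand, to the half-site AGGTCA, the box motifs TATAAA and also CCAAT, the GC box motif GGGCGG and the E-box motif CACGTG, and a match on the other strand appears as its reverse complement:
ANGPTL4: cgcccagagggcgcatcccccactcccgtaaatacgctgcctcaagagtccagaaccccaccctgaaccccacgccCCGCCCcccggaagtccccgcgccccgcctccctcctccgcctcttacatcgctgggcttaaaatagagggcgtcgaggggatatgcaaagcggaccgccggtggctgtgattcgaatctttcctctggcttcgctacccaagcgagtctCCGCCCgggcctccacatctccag

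The GC content of these bases was 65.2%, and the 2 matches were both to GGGCGG on the other strand. In windows of 300 bases from 250 before to 50 after the start, GGGCGG was present in 5 of the 10 genes, against 50.7% of 19558 annotated promoters. CCAAT was present in 3 of the 10, against 35% of all promoters, and TATAAA in 2 of the 10, against 10.9%. AGGTCA, the nuclear receptor half-site, was found in SLC27A1 alone among the 10, against 14.1% of all promoters, and CACGTG in FABP3 alone, against 7.76%. The direct repeat of AGGTCA with 1 base between, the letters of a PPAR element, was found in none of the 10 windows and in 0.0358% of all promoters. These matches describe letters and not binding.

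The RNA-seq libraries held 10833153 to 18627076 estimated counts over genes. Adipocyte markers were high in all 7 libraries, with summed levels of 5016 to 10010 TPM (a level corrected for transcript length and scaled to the library) over 7 measured of 8 listed genes, and the depots overlapped. Mesothelial markers, which mark the lining of the omentum, were at 78.63 to 190.7 TPM in GOM and 0.1028 to 1.293 TPM in ULB (3 measured of 7 listed). The defining markers BNC1 and WT1 were at 0 to 0.1694 TPM and at 0 to 0.2526 TPM in the ULB libraries. Macrophage markers summed to 618.6 to 1353 TPM in GOM and 417.5 to 625.2 TPM in ULB. None of the 8 macrophage markers passed the depot test, but all 8 had log2 fold changes above 0 for GOM against ULB (median 1.22). In the test within wild boar alone, 1 of the 8, C1QB, was called higher in GOM (log2 fold change 2.13, SE 0.39, adjusted p = 0.0497, edgeR). Lymphocyte markers (6 measured of 6) summed to 42.16 to 62.72 TPM in GOM and 22.32 to 28.92 TPM in ULB, and CD2, a T cell surface protein, was higher in GOM (log2 fold change 1.70, SE 0.36, adjusted p = 0.0278, edgeR). Fibroblast markers summed to 3332 to 4501 TPM in GOM and 4768 to 8044 TPM in ULB, but 3 of the 6 had log2 fold changes above 0 and 3 below (median -0.06). The 1 fibroblast marker called, the matrix protein gene DPT, was higher in GOM, at 273.7 to 568.2 TPM against 64.58 to 80.38 TPM (log2 fold change 2.60, SE 0.34, adjusted p = 0.0027). Endothelial markers, whose cells carry GPIHBP1, summed to 509.8 to 762.4 TPM over 7 measured of 8 listed genes. Skeletal muscle markers (4 measured of 8) were at 360.4 TPM in wild boar ULB replicate 1 and at 2.678 to 9.53 TPM in the other 6 libraries. Liver markers (7 measured of 8) were at 1338 TPM in Bama pig GOM replicate 2, at 509.8 TPM in replicate 1, and at 170.6 to 254.1 TPM in the other 5. APOA1, at 146.2 to 226.6 TPM in all 7 libraries, made up most of the lower sums. ALB was at 77.67 TPM in the Bama pig ULB library and at 1.948 to 6.605 TPM in wild boar. For wild boar against Bama pig, 6 of the 7 liver markers had log2 fold changes below 0 and 1 above. In bulk tissue, fewer cells of a type and less RNA per cell cannot be told apart.

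The set accounted for 0.878% to 1.48% of the TPM over genes in a library, and its members were spread widely in level. By mean TPM over the 7 libraries the order was FABP4 (7597), LPL (1473), FABP5 (801.1), FABP3 (247.7), ACSL1 (215.3), GPIHBP1 (153.7), ANGPTL4 (46.93), SLC27A4 (9.127) and SLC27A1 (3.797). FABP4 was the 9th and LPL the 81st most abundant of the 21280 genes. FABP4 was above LPL, and FABP5 above FABP3, in all 7 libraries with ranges that did not overlap. The ranges of all other neighbours in this order overlapped. LPL was above FABP5 in 6 of 7 libraries, FABP3 was above ACSL1 in 4 of 7 and ACSL1 was above GPIHBP1 in 5 of 7.

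**Figure D1:**
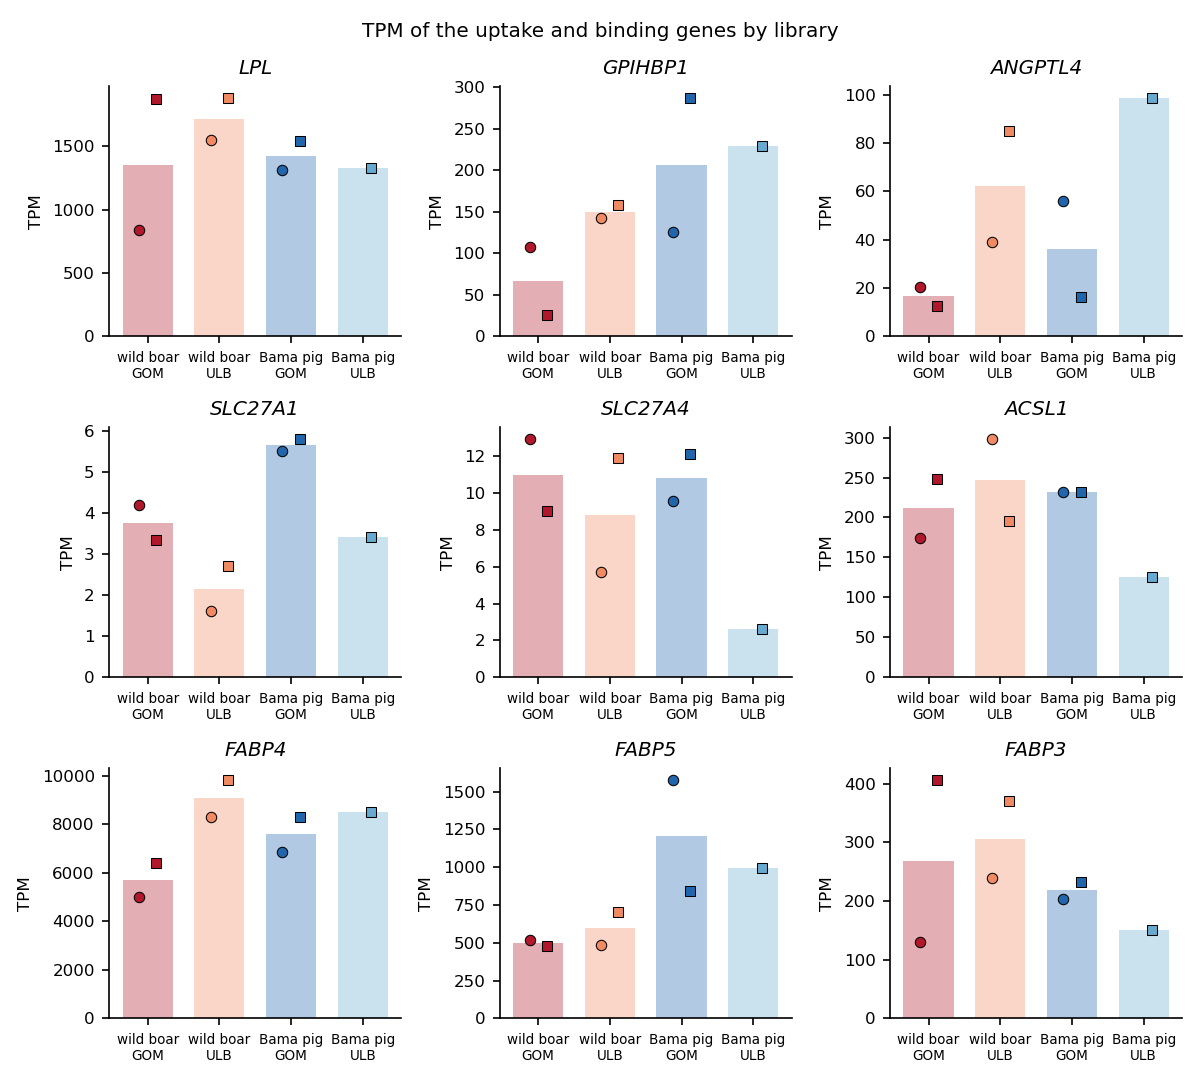
TPM (linear axes from 0) of the 9 genes with an expression value, by breed and depot. Points are libraries (circles, replicate 1, and squares, replicate 2) and bars are group means, and Bama pig ULB is 1 library. ANGPTL4 was at 12.54 to 55.85 TPM in GOM and at 39.14 to 98.75 TPM in ULB, and FABP5 was at 481.5 to 705.6 TPM in wild boar and at 840 to 1578 TPM in Bama pig. FABP5 did not pass the breed test, and 10.9% of all genes tested had no overlap between breeds in log2 CPM.

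On the lipase side, ANGPTL4 was lower in GOM than in ULB, and it was the only one of the 9 genes that passed the depot test. ANGPTL4 (ENSSSCG00000013599, chr2:70905767-70912892, minus strand) was at 20.53 and 12.54 TPM in the GOM of wild boars and at 39.14 and 85.21 TPM in their ULB. In Bama pig it was at 55.85 and 16.47 TPM in GOM and at 98.75 TPM in the ULB library. The 3 lowest libraries were GOM and the 2 highest were ULB, while Bama pig GOM replicate 1 was above wild boar ULB replicate 1, so the depots overlapped. The fitted log2 fold change of GOM against ULB was -1.78 (SE 0.39, adjusted p = 0.0331, edgeR quasi-likelihood test over 7 libraries with breed in the model). In that comparison 644 of 17877 genes (3.6%) were called, 410 higher and 234 lower in GOM, and 1 of the 9 members was called. Within wild boar the difference of mean log2 CPM (counts scaled to library size) was -1.60, and within Bama pig, against 1 ULB library, it was -2.17. The test within wild boar alone gave -1.71 (SE 0.37, adjusted p = 0.0737, edgeR), and in it 1.97% of 16183 genes and none of the 9 members were called. The 7-library call did not hold without wild boar GOM replicate 1 (adjusted p = 0.0616), without wild boar GOM replicate 2 (0.0903), without wild boar ULB replicate 2 (0.117) or without the Bama pig ULB library (0.192), with edgeR fold changes between -2.10 and -1.55 on the log2 scale over all libraries left out in turn. The limma test on log2(TPM + 1) gave -1.74 (adjusted p = 0.104). The mesothelial markers, CD2 and DPT were higher in GOM, and all 8 macrophage markers had fold changes above 0, as given above. The part of these markers in the ANGPTL4 difference was not tested.

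LPL, the enzyme itself, was abundant in both depots and both breeds. LPL (ENSSSCG00000040631, chr14:4104761-4134964, plus strand) was at 839.4 and 1871 TPM in wild boar GOM, 1547 and 1881 TPM in wild boar ULB, 1310 and 1539 TPM in Bama pig GOM and 1327 TPM in Bama pig ULB. Its lowest and its second highest library were the replicates of wild boar GOM, so the spread inside that group covered all other libraries but 1. The log2 fold change was -0.17 (SE 0.38, adjusted p = 0.834, edgeR) for GOM against ULB and 0.44 (SE 0.39, adjusted p = 0.520) for wild boar against Bama pig. Neither difference exceeded the spread between replicates.

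GPIHBP1, the capillary anchor of LPL, had the widest range of the set, 11.2 times from lowest to highest. GPIHBP1 (ENSSSCG00000034689, chr4:1253401-1256921, minus strand) was at 107.8 and 25.62 TPM in wild boar GOM, 142.3 and 158.1 TPM in wild boar ULB, 125.2 and 287.4 TPM in Bama pig GOM and 229.3 TPM in Bama pig ULB. Wild boar GOM replicate 2 was the lowest by far, and the depots and the breeds overlapped. Fitted log2 fold changes were -0.84 (SE 0.43, adjusted p = 0.314, edgeR) for depot and -0.96 (SE 0.43, adjusted p = 0.232) for breed. Without wild boar GOM replicate 1 they were -1.38 and -1.51, without replicate 2 of that group -0.48 and -0.60, and the breed value was -0.52 without Bama pig GOM replicate 2. The summed endothelial markers of wild boar GOM replicate 2 were at 576.8 TPM, inside the range of the other libraries. Single markers went both ways there, with KDR (29.22 TPM) and ESAM (25.03 TPM) at their lowest and CLDN5 (116.6 TPM) at its highest. The part of endothelial content in the GPIHBP1 level was not tested.

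No member passed the breed test. In it 75 of 17877 genes (0.42%) were called, 22 up and 53 down in the wild boars. An unadjusted p under 0.05 was reached by 3867 genes, and DESeq2 called 1245 genes and likewise none of the 9 members. Within GOM alone, 4 of 16615 genes (0.0241%) were called between breeds and again none of the 9 members. The breed by depot interaction called 0 of 17877 genes by edgeR, with 869 at an unadjusted p under 0.05, 52 by DESeq2 and 356 by limma on log2(TPM + 1), and none of the 9 members by any of these 3 tests. A breed effect in ULB rests on 1 Bama pig library and was not tested within that depot.

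**Figure D2:**
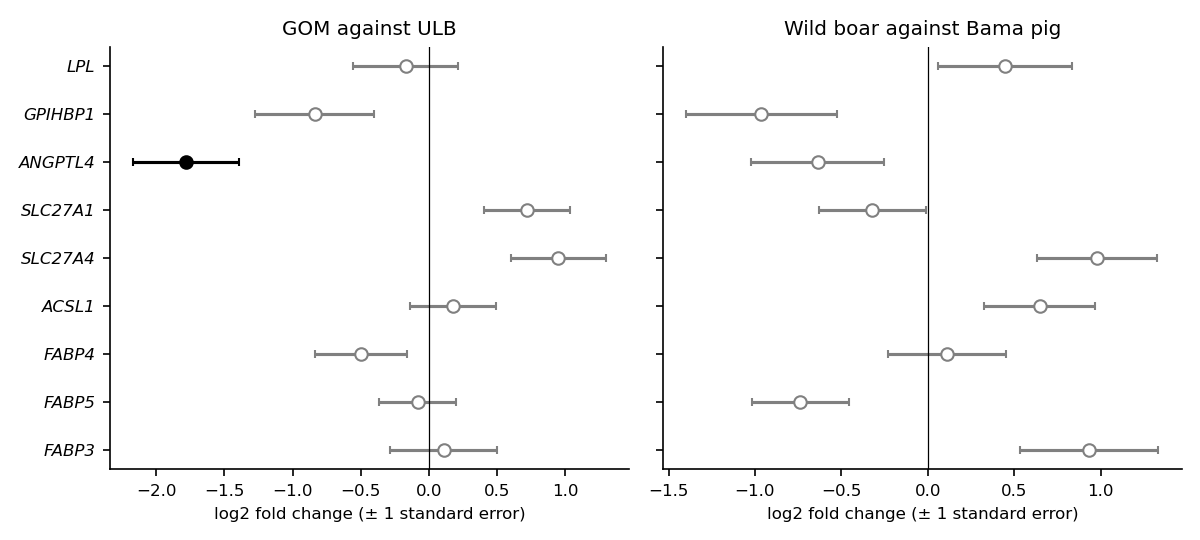
Log2 fold changes of the 9 genes (points) with 1 standard error (bars) from the edgeR fit of 7 libraries, for GOM against ULB (left) and wild boar against Bama pig (right). The filled point is the gene with an adjusted p below 0.05, ANGPTL4 at -1.78 for depot, and open points did not pass.

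Among the uptake genes, the fatty acid transport proteins were the lowest of the set. SLC27A1 (ENSSSCG00000013879, chr2:60203374-60235689, minus strand), a transporter with acyl-CoA synthetase activity, was at 4.199 and 3.331 TPM in wild boar GOM, 1.608 and 2.699 TPM in wild boar ULB, 5.512 and 5.802 TPM in Bama pig GOM and 3.426 TPM in Bama pig ULB. Within each breed the GOM libraries lay above the ULB libraries, but wild boar GOM replicate 2 lay below the Bama pig ULB library, so the depots overlapped across breeds on this scale. On the log2 CPM scale all 4 GOM libraries were above all 3 ULB libraries. Such a separation was seen, in either direction, for 13.4% of all genes tested and for 2 of the 9 members, SLC27A1 and FABP4. The log2 fold change of SLC27A1 was 0.72 (SE 0.32, adjusted p = 0.237, edgeR) for depot and -0.32 (SE 0.31, adjusted p = 0.561) for breed.

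SLC27A4 (ENSSSCG00000005648, chr1:268773792-268788208, plus strand), a second transporter of the same family, was at 12.94 and 9.029 TPM in wild boar GOM, 5.734 and 11.91 TPM in wild boar ULB, 9.547 and 12.11 TPM in Bama pig GOM and 2.614 TPM in Bama pig ULB. The Bama pig ULB library was the lowest, with 95 estimated counts, and the other 6 libraries overlapped between depots. Its fold change on the log2 scale was 0.95 (SE 0.35, adjusted p = 0.167, edgeR) for depot and 0.98 (SE 0.35, adjusted p = 0.162) for breed, and neither passed. Without the Bama pig ULB library these values were 0.54 and 0.58.

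ACSL1, the main long-chain acyl-CoA synthetase of fat, was the most even of the uptake genes. ACSL1 (ENSSSCG00000015784, chr15:45866858-45936327, minus strand) was at 174.6 and 248.1 TPM in wild boar GOM, 298.3 and 195.9 TPM in wild boar ULB, 231.7 and 232.5 TPM in Bama pig GOM and 125.9 TPM in Bama pig ULB. The lowest and the highest library were both ULB. On the log2 scale the fold change was 0.18 (SE 0.32, adjusted p = 0.792, edgeR) for depot and 0.65 (SE 0.32, adjusted p = 0.267) for breed.

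Among the binding proteins, FABP4 was by far the most abundant and lay higher in the ULB libraries, without passing the test. FABP4 (ENSSSCG00000040681, chr4:55096400-55101209, plus strand) was at 4997 and 6381 TPM in wild boar GOM, 8299 and 9823 TPM in wild boar ULB, 6864 and 8298 TPM in Bama pig GOM and 8517 TPM in Bama pig ULB. The depots did not overlap, but the highest GOM and the lowest ULB library were 8298 and 8299 TPM. The log2 fold change was -0.50 (SE 0.34, adjusted p = 0.438, edgeR) for depot and 0.11 (SE 0.34, adjusted p = 0.872) for breed, and the breed value changed sign to -0.22 with limma on log2(TPM + 1).

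FABP5 was the 1 member whose libraries did not overlap between the breeds, without passing the breed test. That count is near the share over all genes tested, which is given below. FABP5 (ENSSSCG00000006153, chr4:55277831-55282585, minus strand) was at 518.5 and 481.5 TPM in wild boar GOM, 488.1 and 705.6 TPM in wild boar ULB, 1578 and 840 TPM in Bama pig GOM and 996.3 TPM in Bama pig ULB. All 4 wild boar libraries were below all 3 Bama pig libraries, on the TPM scale and on the log2 CPM scale. The latter separation was seen for 10.9% of all genes tested and for 1 of the 9 members. The log2 fold change of wild boar against Bama pig was -0.74 (SE 0.28, adjusted p = 0.182, edgeR) and did not pass with all 7 libraries. Without Bama pig GOM replicate 2 it was -0.93 (adjusted p = 0.0456), in a fit in which the number of genes called between breeds was 1980. The summed macrophage markers overlapped between the breeds (417.5 to 1353 TPM in wild boar and 468.8 to 1141 TPM in Bama pig). The part of macrophage content in the FABP5 level was not tested. For depot, the log2 fold change of FABP5 was -0.08 (SE 0.28, adjusted p = 0.893).

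FABP3, the muscle form, varied inside wild boar GOM more than between groups. FABP3 (ENSSSCG00000036883, chr6:87943003-87950708, minus strand) was at 130.4 and 406.4 TPM in wild boar GOM, 239.3 and 371 TPM in wild boar ULB, 203.5 and 232.9 TPM in Bama pig GOM and 150.7 TPM in Bama pig ULB. The lowest and the highest library were the replicates of wild boar GOM. The library with high skeletal muscle markers, wild boar ULB replicate 1, was in the middle of the FABP3 range. The log2 fold change was 0.11 (SE 0.39, adjusted p = 0.898, edgeR) for depot, which became -0.003 without that library, and 0.93 (SE 0.40, adjusted p = 0.213) for breed. Without wild boar GOM replicate 2 the FABP3 breed value was 0.31, and it was 0.44 with limma on log2(TPM + 1). Without that replicate the depot value was -0.51, and without replicate 1 of the same group it was 0.43.

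Over the 7 libraries the members did not rise and fall as 1 block. On the log2 CPM scale, Pearson's r was 0.93 between LPL and FABP3, 0.81 between LPL and FABP4, 0.60 between FABP4 and FABP3 and -0.71 between ACSL1 and FABP5. These are descriptions over 7 libraries that share animals, breed and depot. Among 7451 genes with a symbol, the 5 most like the mean of the members were CERS6 (r = 0.985), ZKSCAN5 (0.964), IFT20 (0.953), KCTD9 (0.947) and PPARG (0.934). The genes most like LPL alone were MRPS10 (0.974), PWP1 (0.971) and CAT (0.965). Both lists hold the highest of 7451 values over 7 libraries, and the r that such a choice alone would give was not tested. The mean of the members averages genes that did not move together.

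The wider pathway was followed with lists that did not include the members. Genes of lipase handling (9 of 12 measured) had no depot call, and APOC3 was called for breed. APOC3, a lipoprotein component that slows lipolysis, was at 0 to 2.188 TPM in wild boar and at 29.46 to 51.94 TPM in Bama pig (log2 fold change -5.58, SE 0.84, adjusted p = 0.0249, edgeR). It is mainly a gene of the liver, and 4 of 7 liver markers tested were also called, all lower in wild boar. ALB, the plasma protein albumin, was at 1.948 to 6.605 TPM in wild boar and at 77.67 to 873.5 TPM in Bama pig, and FGB, AHSG and APOH were the other 3. The part of these liver genes in the breed call was not tested. VLDLR, a lipoprotein receptor, had a depot log2 fold change of 0.93 (SE 0.31, adjusted p = 0.136).

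Of 7 PPAR receptors and partners, 1 was called. PPARGC1A, the coactivator of oxidative metabolism, was at 0.3202 to 1.009 TPM in the 4 GOM libraries and at 3.243 to 5.049 TPM in the 3 ULB libraries, and the log2 fold change of GOM against ULB was -3.03 (SE 0.44, adjusted p = 0.00464, edgeR). The part of the markers that were higher in GOM was not tested for this gene. PPARG itself was at 112.6 to 216 TPM, with log2 fold changes of -0.13 (SE 0.28, adjusted p = 0.816) for depot and 0.05 (SE 0.28, adjusted p = 0.936) for breed. The other FABP genes, the other SLC27 genes, the other ACSL genes, the caveola genes and the other binding proteins (4, 4, 4, 6 and 4 tested) had no call for depot or breed. In them, CAV1, the caveola coat protein, was at 883.1 to 1847 TPM (depot -0.21, SE 0.29, adjusted p = 0.723) and ACSL5 at 22.72 to 51.71 TPM (depot 0.49, SE 0.25, adjusted p = 0.301). The median depot log2 fold change was -0.08 over the 9 members and 0.02 over all genes tested, and for breed it was 0.11 and -0.04.

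The chromatin at the 10 genes was described by PC1, the compartment score of a 20-kb bin, where positive values mark the open, gene-rich A compartment and negative values the closed B compartment. The bin of the start site was positive in all 7 Hi-C libraries for 8 of the 10 genes, against 72% of 18724 annotated gene starts. PC1 ranged from 58.67 to 90.2 for SLC27A4, from 57.05 to 72.4 for SLC27A1, from 53.78 to 73.27 for ANGPTL4, from 45.34 to 52.33 for GPIHBP1, from 32.92 to 50.3 for FABP3 and from 33.01 to 41.07 for ACSL1. FABP4 and FABP5 were lower, at 9.68 to 25.11 and 8.91 to 23.82. The 2 genes with the lowest TPM had the highest mean PC1, SLC27A4 at 77.75 and SLC27A1 at 66.42. PC1 is computed for each chromosome, so its size is not on 1 scale across chromosomes. The share of bins of the same chromosome with a lower mean PC1 was 98.3% for SLC27A4, 95.7% for SLC27A1 and 95.6% for GPIHBP1. It was 92.6% for ACSL1, 91.1% for ANGPTL4, 82.7% for FABP3, 74.5% for FABP4 and 72.5% for FABP5.

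**Figure D3:**
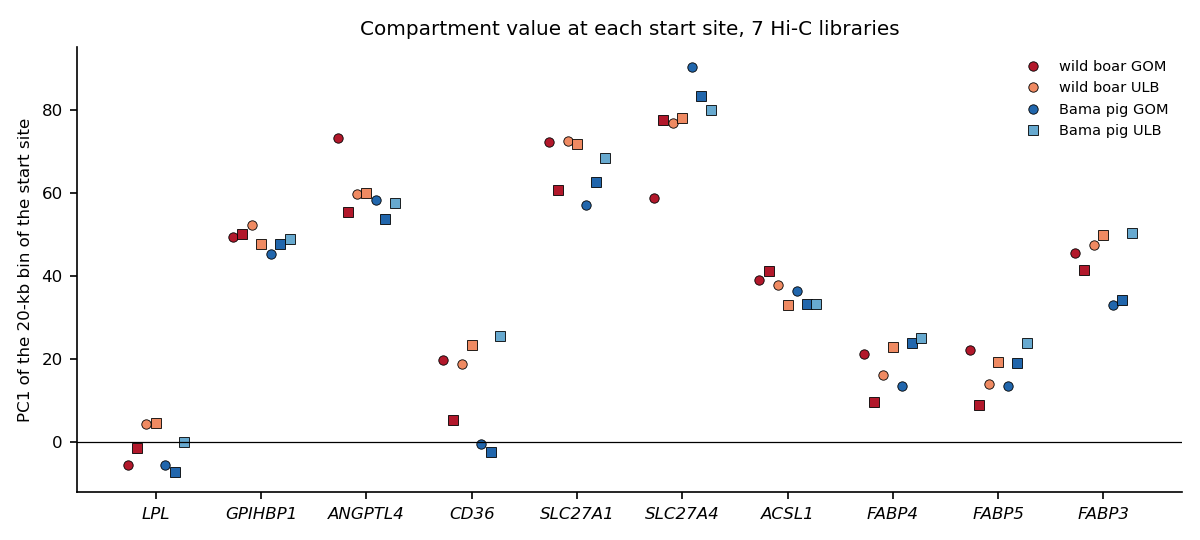
PC1 (score, no unit) of the 20-kb bin that holds the start site of each of the 10 genes in the 7 Hi-C libraries. Circles are replicate 1 and squares replicate 2, coloured by breed and depot, and the line marks 0, the limit between compartments A and B. LPL and CD36 were the genes with libraries on both sides of 0.

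LPL and CD36 were the 2 exceptions, and mixed signs were seen at 12.6% of gene starts. LPL had PC1 of -5.44 and -1.51 in the GOM of wild boars, 4.39 and 4.71 in their ULB, -5.48 and -7.24 in Bama pig GOM and -0.08 in Bama pig ULB. The depots did not overlap, which was also true of FABP3 among the members and of 18.8% of 113298 autosomal bins. The difference of GOM and ULB at LPL was -7.33 (SE 2.47, adjusted p = 0.141, limma over all bins), and 2609 bins (2.3%) but no member bin passed for depot. For breed, 11 bins (0.00971%) passed by limma, with 13720 at an unadjusted p under 0.05, and no member bin did. SLC27A4 was the 1 member whose bin separated the breeds without overlap, lower in wild boar, as did 8.89% of bins, with a difference of -12.20 (SE 5.04, adjusted p = 0.383), which was -5.88 without wild boar GOM replicate 1 and -18.68 without the Bama pig ULB library.

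A low PC1 at LPL stood beside its high expression. Of 45 genes placed on autosomes with a mean TPM at or above that of LPL, 4 had a mean PC1 below 0 at the start (8.89%), namely LPL, HBB, RPL38 and RPS23, against 14.3% of 13063 placed genes. This count was chosen after its values were seen. Within 1 Mb on each side of the LPL start, 8 to 19 of 101 bins were positive in a library. The gene lay at the edge of a short interval of higher PC1 inside a strongly negative region. In the bin about 225 kb after the start, PC1 was at 2.48 to 15.39 over the libraries. In the bins within 100 kb, 9 to 10 of 10 were negative in the GOM libraries and 5 to 8 of 10 in the ULB libraries.

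CD36 (chr9:99685748-99782296, minus strand), the surface receptor for long-chain fatty acids, had PC1 of 19.79 and 5.36 in the GOM of wild boars, 18.87 and 23.3 in their ULB, -0.56 and -2.37 in Bama pig GOM and 25.44 in Bama pig ULB. Both Bama pig GOM libraries were below the other 5. Within 100 kb of the start, 7 and 8 of 10 bins were negative in Bama pig GOM, compared with 0 or 1 of 10 in each of the other 5 libraries. The depot difference was -15.87 (SE 4.67, adjusted p = 0.105, limma), the breed difference was 6.68 (SE 4.67, adjusted p = 0.607), and neither passed. Without the Bama pig ULB library these differences were -8.51 and 14.04, and without wild boar GOM replicate 1 the breed difference was 1.24. Of the 6 bins over the gene body, 5 had libraries of both signs. CD36 has 10 annotated start sites, and the start of a curated transcript was used.

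**Figure D4:**
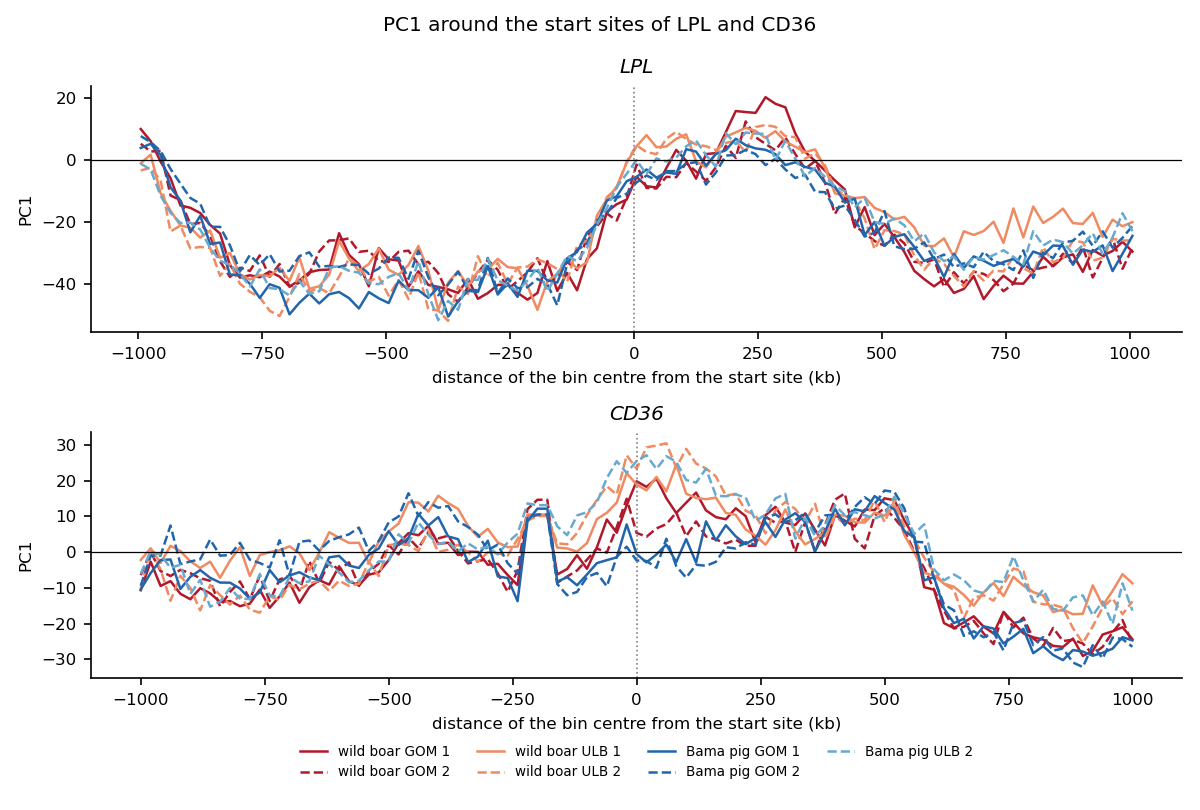
PC1 (score) against the distance of the bin centre from the start site (kb, along the chromosome, so that CD36 runs to the left) for LPL and CD36, with 1 line for each Hi-C library (solid, replicate 1, and dashed, replicate 2). At LPL, libraries were close to 0 at the start and strongly negative on the side before it, and at CD36 the Bama pig GOM lines were near 0 where the other libraries were higher.

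Topologically associating domains (TADs), intervals of dense contact, were given by the authors as 1 list for each breed and depot, so no replicate spread is known. ACSL1 lay in the same 240-kb TAD in all 4 lists, and 4 more genes (LPL, ANGPTL4, CD36 and FABP4) did so when boundaries within 40 kb were taken as equal. The start of FABP3 lay in no TAD of any list, and that of GPIHBP1 in a TAD of 2 lists. The starts of FABP4 and FABP5 are 186.2 kb apart and shared a TAD in wild boar ULB, Bama pig GOM and Bama pig ULB. In wild boar GOM the TAD of FABP4 ended at chr4:55280000, inside FABP5 and 2.58 kb from its start, while the boundary in the other lists lay 17.4 to 37.4 kb from that start. TADs were called by the authors at 20-kb resolution, and these ends are equal within the 40 kb allowed above. The split of FABP4 and FABP5 therefore lies within that tolerance and is not shown to be a difference between groups. FABP5 levels in these 2 depots of the wild boars overlapped, as given above.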

How the data were processed

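The authors quantified RNA-seq reads per gene with kallisto (0.43.0 in the submitters' processing notes) and deposited an estimated count and a TPM value for each gene and library. Estimated counts were rounded to whole numbers. The authors also deposited a compartment score for each 20-kb bin and Hi-C library, which is named an A-B index but has mean 0 on each chromosome and was read as PC1, and 1 list of TADs for each breed and depot. Labels gave breed, depot and replicate number.

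Genes whose TPM exceeded 0.1 throughout at least 1 of the groups compared were tested by the edgeR (4.0.16) quasi-likelihood test with TMM normalization. Depot and breed were tested in 1 additive model of 7 libraries, which leaves 4 residual degrees of freedom. Breed within GOM, depot within wild boar and the interaction were tested as well. Calls required a Benjamini-Hochberg adjusted p below 0.05 over all genes tested (two-sided). A printed SE is the log2 fold change divided by the square root of its F statistic. PC1 was tested with limma (3.58.1) over 113298 autosomal bins. Log2 CPM used a prior count of 2. DESeq2 (1.42.0), other normalizations, filters, pseudocounts, blocks and each library left out were tried as alternatives, and edgeR and limma steps were tested on simulated data. Loci and promoters came from RefSeq for Sscrofa11.1, whose autosome lengths equalled those of the bins. Genes of the lists were named if called, at most 4 for each list and comparison, with VLDLR, CAV1, PPARG and ACSL5 named in any case and 1 called gene of the lists not reported here, and the genes most alike in pattern were the 5 and 3 with the highest Pearson's r at a mean TPM of at least 10. The members and lists were chosen with earlier results of these data known.

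Total estimated counts were 10833153 to 18627076 per library. The p-values measure the spread between libraries of 2 animals a breed that gave both depots. The TPM over all 21280 genes of the expression tables summed to 774260 to 956616 per library, so TPM differences between libraries are shifted relative to log2 CPM. Kallisto can split reads among near-identical gene copies, which was not measured here. The library kit differs between the labels and the study's methods.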

Additional observations from a re-analysis of the deposited data

How the results depend on the processing

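Limits first: with 4 residual degrees of freedom and 1 Bama pig ULB library, a member that was not called is not shown to be equal between groups, and a fit that leaves out a library so that a group keeps 1 assumes that the lone library varies like the others. Leaving out the Bama pig ULB library leaves depot estimated from wild boar alone. Genes called for depot (644) numbered 1008 without a filter, 1551 by DESeq2 and 336 by limma on log2(TPM + 1), and 230 to 668 with a library left out. For breed (75), they numbered 504 without a filter, 1245 by DESeq2, 35 and 137 by limma on log2(TPM + 1) and log2(TPM + 0.1), and 1 to 1980 with a library left out, the lowest without Bama pig ULB replicate 2 and the highest without Bama pig GOM replicate 2. For breed in GOM (4), they numbered 26, 167, 0 and 2 in the same order, and 0 to 123 with a library left out. For depot in wild boar (318), they numbered 608 without a filter, 1471 by DESeq2 and 44 to 227 with a library left out, the lowest without wild boar GOM replicate 1. For the interaction (0), they numbered 7, 52, 356 and 237, and 0 to 1 with a library left out. PC1 bins called for depot (2609) fell to 0 to 700 with a library left out, and for breed (11) there were 22 after centring on the chromosome median and 6 to 1523 with a library left out. The cause of these changes was not tested. The median breed log2 fold change of all genes was -0.04 in the edgeR fit, -0.18 with the upper quartile, and -0.23 and -0.34 by limma on log2(TPM + 1) and log2(TPM + 0.1), which change scale, pseudocount and test together.

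The replicate number as a block gave 793 genes for depot, 15 for breed in GOM and 1845 for depot in wild boar by edgeR. It gave 0 depot bins and 28 breed bins of PC1 by limma. For breed it gave 216 genes by limma on log2 counts with a random block, so test and block changed together there. With this block, ANGPTL4 (-1.65, adjusted p = 0.000349) and GPIHBP1 (-1.30, adjusted p = 0.00967) passed in wild boar by edgeR. For depot over the 7 libraries, ANGPTL4 was at -2.08 (adjusted p = 0.00822, edgeR) and FABP3 was at -0.01. In that fit Bama pig GOM replicate 1 had no ULB library of the same number. No source states that equal numbers are 1 animal, and across 17877 genes the deviations of equal-numbered wild boar libraries had r = 0.154. The correlation within a block, estimated in the limma fit for breed, was -0.134.

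Of the members, ANGPTL4 kept its sign for depot in every alternative run and lost its call in those given with it in the results and with limma on log2(TPM + 0.1) (-1.78, adjusted p = 0.0594). Within wild boar ANGPTL4 passed without a filter (-1.71, adjusted p = 0.0351, edgeR), by DESeq2 (-1.72, adjusted p = 0.000967) and without wild boar ULB replicate 1 (-2.09, adjusted p = 0.0196). FABP4 for breed reversed with the upper quartile (-0.03) and on both TPM scales (-0.22 each), and FABP3 for depot on both TPM scales (-0.01 each). Values that were not called also moved by over 1.5 times with a library left out, as given in the results for GPIHBP1, SLC27A4 and FABP3, and for breed in ANGPTL4 (-0.96 to -0.20, the latter without Bama pig GOM replicate 1) and SLC27A1 (-0.45 to -0.01, the latter without the Bama pig ULB library). With a library left out, the depot values spanned 0 for LPL (-0.63 to 0.07), ACSL1 (-0.01 to 0.44), FABP5 (-0.22 to 0.04) and FABP3 (-0.51 to 0.43), and the breed values for LPL (-0.02 to 0.68) and FABP4 (-0.07 to 0.22). In PC1, the depot difference reversed for ANGPTL4 when divided by the chromosome SD (-0.02), and for SLC27A4 over the gene body (1.52), and with a library left out it spanned -3.0 to 5.96 and -9.31 to 3.48.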
